A study of Homo sapiens with 6 samples.

Results

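The genes described here encode 10 proteins of stress granules, the core nucleators G3BP1 and G3BP2, the G3BP partners CAPRIN1, USP10 and UBAP2L, the prion-like RNA-binding proteins TIA1 and TIAL1, ATXN2, and the fragile X family proteins FMR1 and FXR1. They were taken by gene symbol from a deposited table of 58735 genes, and each of the 10 matched 1 row. They were chosen by function around G3BP2, which itself had been selected on its FPKM difference between the 2 groups of this study, so the differences below are a description and support nothing about the 10 genes as a whole. RNA sequencing was done on 6 samples of TPC1, an established papillary thyroid carcinoma line grown in DMEM with serum. Of these, 3 came from cells transfected with siRNA that silences hsa_circ_0000839, a circular RNA (group si-circ_0000839), and 3 from cells given negative-control siRNA (group NC), in both groups for 60 h. The study asked which messenger RNAs differ when this circular RNA is silenced. Both groups had therefore gone through a transfection, and no untransfected cells were analysed here. The labels do not tell whether replicates were separate cultures, and the spread behind each p-value may be technical. The siRNA sequences were not used here, and no row of the table was matched to the circular RNA, so how far it was depleted was not checked.

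Stress granules are condensates of messenger RNA and protein that form in the cytoplasm when translation initiation stalls, often after phosphorylation of the initiation factor eIF2. The paralogs G3BP1 and G3BP2 act as the central nodes: they dimerise through an NTF2-like domain and bind RNA released from ribosomes. CAPRIN1 and USP10 compete for the same pocket of that domain, CAPRIN1 favouring condensation and USP10 opposing it.

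The libraries held 18399558 to 19334633 reads assigned to genes, recovered from the deposited values. Reads of mitochondrial genes made up 1.33% to 1.37% of them after si-circ_0000839 and 1.38% to 1.60% in NC, so this share moved with the groups, and its part in the differences below was not tested. Thyroid markers were in part present: 3 of 8 had a mean of at least 1 FPKM (fragments per kilobase of gene length, scaled by a total per library). PAX8 was at 91.2 to 102 FPKM, while NKX2-1, TSHR and SLC5A5 were listed at 0. The leukocyte markers PTPRC and CD3E were listed at 0 in every library, and the summed endothelial markers stayed at 0.0262 to 0.132 FPKM. The 3 fibroblast markers did not go one way. LUM was at 22.5 ± 2.53 FPKM in NC against 15.8 ± 2.40 in si-circ_0000839, COL1A1 was at 0.370 ± 0.0571 against 0.565 ± 0.0601, and DCN was at most at 0.00428. Their sum, almost all of it LUM, was 14.2 to 18.9 FPKM after si-circ_0000839 and 20.0 to 25.0 in NC, and its part in the differences below was not tested. In bulk RNA, fewer cells of a type and less RNA per cell cannot be told apart.

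G3BP2 was the 1 member past the threshold, and it was lower after si-circ_0000839. G3BP2 (ENSG00000138757) lies on the minus strand of chromosome 4 from 75642782 to 75724525 in GRCh38. It stood at 15.7, 14.9 and 15.4 FPKM in NC replicates 1, 2 and 3, and at 9.89, 11.2 and 11.9 FPKM after si-circ_0000839. All 3 silenced libraries lay below all 3 controls, and the highest silenced value was well short of the lowest control. The means were 15.3 ± 0.398 FPKM in NC and 11.0 ± 1.01 after si-circ_0000839 (SD, n = 3 each), a difference of -28.3%. These values rested on 1945 to 2186 reads per library in NC and 1303 to 1576 after si-circ_0000839. On the log2(FPKM + 1) scale, which understates differences of low genes, the difference was -0.45 (SE 0.08). In the limma fit over all genes its adjusted p was 0.0431, the 37th smallest of 10674 tested genes. That p is the value through which the gene was picked, so it is a description and not evidence gained here, and it missed the threshold when any 1 library was left out.

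For G3BP1, the closest relative of G3BP2, the groups lay together. G3BP1 (ENSG00000145907, plus strand of chromosome 5, 151771045 to 151812785, GRCh38) stood at 20.5, 18.7 and 20.4 FPKM in NC against 19.3, 21.0 and 20.0 in si-circ_0000839. The ranges overlapped, and the difference was 0.02 on the log2 scale (SE 0.07). The sum of both G3BP genes was 35.2 ± 1.34 FPKM in NC and 31.1 ± 1.66 after si-circ_0000839. It ranged from 29.1 to 32.1 FPKM in the silenced libraries and from 33.6 to 36.1 in NC, without overlap. The sum contains G3BP2, which was picked for its difference, so neither this gap nor the share below is a further result. G3BP2 made up 43.4%, 44.3% and 43.0% of that sum in NC and 33.9%, 34.7% and 37.3% after si-circ_0000839. Among the members, 1 of 10 was called at an adjusted p under 0.05 and 9 were not, where 0.384% of all tested genes were called, and nothing is read from this count because the contrast served to choose the group. All 10 members had a mean of at least 1 FPKM and were tested.

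**Figure D1:**
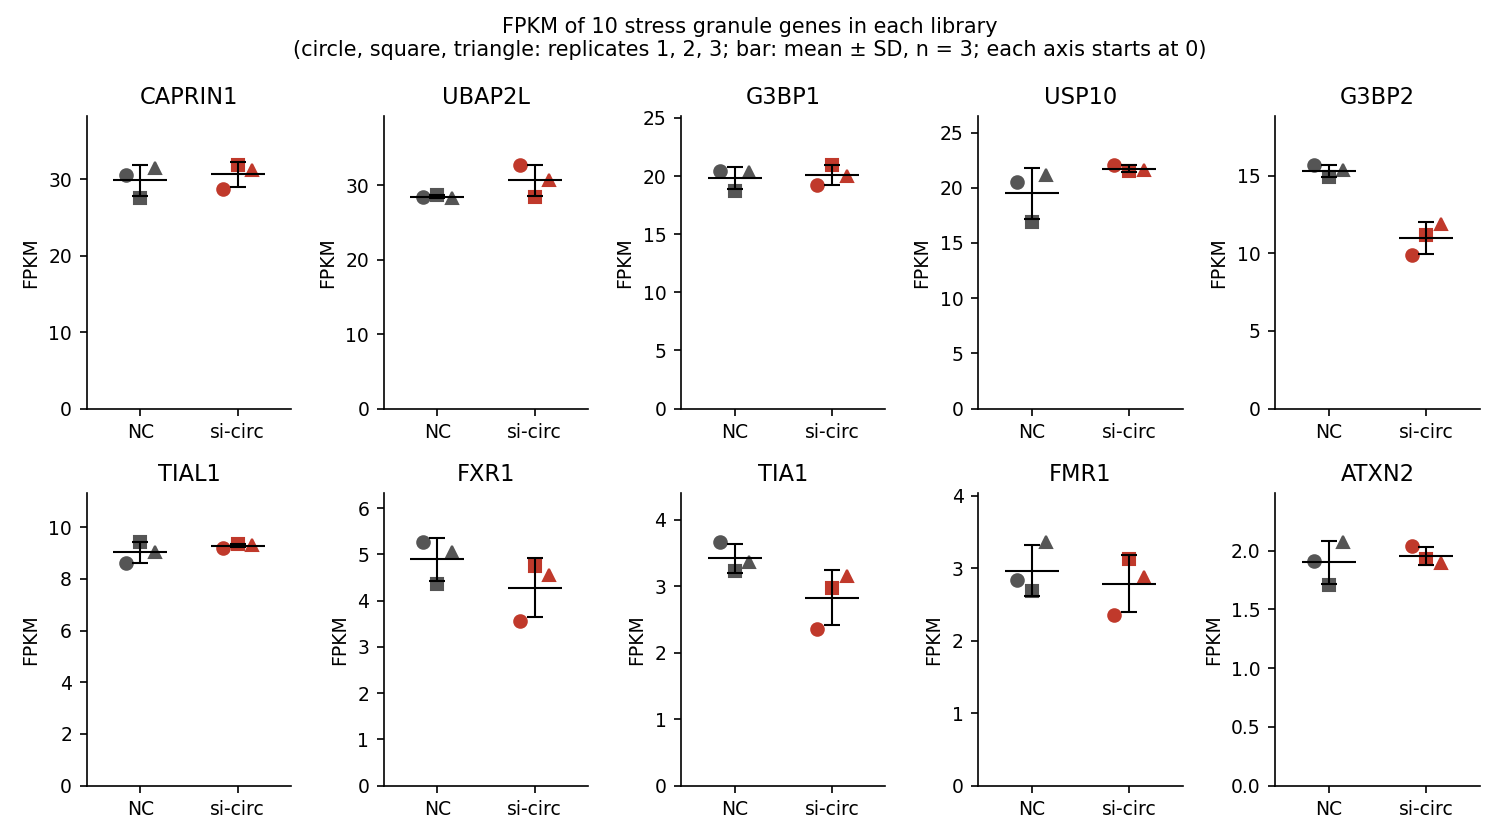
FPKM (vertical axes, each from 0) of the 10 genes in every library, NC in grey and si-circ_0000839 (shortened to si-circ on the axis) in red, with mean ± SD (n = 3). G3BP2 lies at 9.89 to 11.9 FPKM in the silenced libraries and at 14.9 to 15.7 in NC, while most other genes overlap between the groups.

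The partners of G3BP were among the most abundant members and none of them passed the threshold. CAPRIN1, an RNA-binding protein that binds the G3BP dimer and promotes granule formation, was at 30.6, 27.5 and 31.5 FPKM in NC against 28.7, 31.8 and 31.3 in si-circ_0000839. These ranges overlapped, with a log2 difference of 0.04 (SE 0.08). USP10, a deubiquitinase that occupies the same pocket of G3BP, stood at 20.5, 16.9 and 21.2 FPKM in NC against 22.1, 21.5 and 21.6 in si-circ_0000839. Every silenced library was above every control, by a narrow margin, and NC replicate 2 was far below the other controls. The log2 difference of USP10 was 0.15 (SE 0.09) with all libraries and 0.06 without NC replicate 2. UBAP2L, an RNA-binding protein needed for granule assembly, was at 28.5, 28.7 and 28.3 FPKM in NC against 32.8, 28.5 and 30.8 in si-circ_0000839. Silenced replicate 2 of UBAP2L fell within the control range, and the log2 difference was 0.10 (SE 0.07), or 0.05 without si-circ_0000839 replicate 1.

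TIA1 and TIAL1 are paralogs that bind U-rich RNA and carry prion-like domains, through which they join granules. TIA1 stood at 3.67, 3.23 and 3.37 FPKM in NC against 2.36, 2.97 and 3.15 in si-circ_0000839. The groups did not overlap, but the gap between the highest silenced and the lowest control library was small, and silenced replicate 1 was the lowest of all. The log2 difference of TIA1 was -0.21 (SE 0.10), it did not pass the threshold, and it was -0.12 without si-circ_0000839 replicate 1. TIAL1 was at 8.63, 9.42 and 9.05 FPKM in NC against 9.21, 9.34 and 9.32 in si-circ_0000839, all 3 within the control range (log2 difference 0.04, SE 0.07). TIA1 made up 27.5% ± 2.17 of the summed FPKM of both genes in NC and 23.3% ± 2.54 after si-circ_0000839.

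The fragile X proteins bind messenger RNA on polysomes, where FMR1 represses translation, and they join granules on stress. FMR1 ranged from 2.69 to 3.36 FPKM in NC and from 2.35 to 3.13 after si-circ_0000839, with a log2 difference of -0.07 (SE 0.10). FXR1, its autosomal relative, stood at 5.26, 4.36 and 5.04 FPKM in NC against 3.56, 4.74 and 4.55 in si-circ_0000839. Silenced replicate 1 was again the lowest, the other silenced libraries lay inside the control range, and the log2 difference moved from -0.16 (SE 0.10) to -0.06 without that library. The third paralog FXR2 had the highest FPKM of the family, at 15.5 ± 0.844 FPKM in NC against 15.1 ± 0.678 in si-circ_0000839. ATXN2 binds poly(A)-binding protein and has a polyglutamine tract. It had the lowest FPKM of the members, at 1.71 to 2.07 FPKM in NC against 1.89 to 2.04 in si-circ_0000839 (log2 difference 0.03, SE 0.08). Its paralog ATXN2L was at 22.3 ± 0.792 FPKM in NC against 24.9 ± 1.67 in si-circ_0000839, so that ATXN2 made up 7.83% ± 0.668 and 7.27% ± 0.355 of the summed FPKM of both.

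Of the other paralogs, UBAP2 was at 4.87 ± 0.270 FPKM in NC against 5.43 ± 0.402 in si-circ_0000839. UBAP2L made up 85.4% ± 0.632 and 85.0% ± 0.0939 of the summed FPKM of the UBAP2 genes. CAPRIN2, at 1.16 ± 0.146 and 0.920 ± 0.113 FPKM, added little to CAPRIN1. In the plot of paralog shares the group means were furthest apart for G3BP2, at 43.6% ± 0.644 and 35.3% ± 1.74, although this gene had been picked for its difference.

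**Figure D2:**
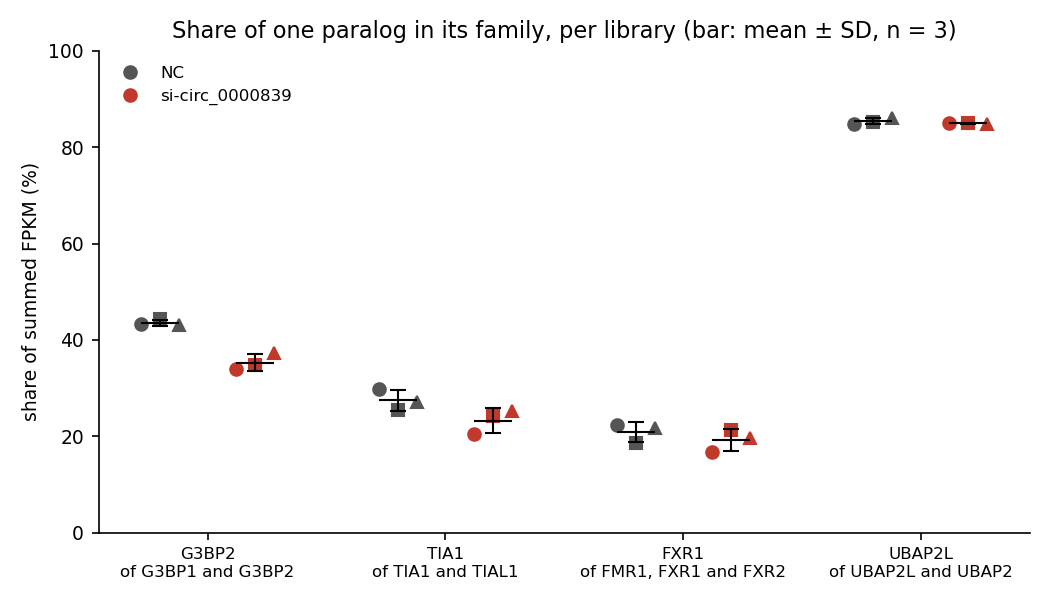
Share of 1 paralog in the summed FPKM of its family (vertical axis, percent) in each library, NC grey and si-circ_0000839 red, with mean ± SD (n = 3). G3BP2 makes up 43.0% to 44.3% of the G3BP sum in NC and 33.9% to 37.3% in the silenced libraries, and the UBAP2L share differs by less than 1 percentage point between group means.

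In NC the order of FPKM levels, which are per gene length, was CAPRIN1, UBAP2L, G3BP1, USP10, G3BP2, TIAL1, FXR1, TIA1, FMR1 and ATXN2. Neighbours whose libraries overlapped were CAPRIN1 and UBAP2L, G3BP1 and USP10, and TIA1 and FMR1, and the other neighbours did not overlap. After si-circ_0000839 G3BP2 was again between G3BP1 and TIAL1, while USP10 stood above G3BP1 without overlap and UBAP2L and CAPRIN1 could not be ordered. Among the 10 genes G3BP2 made up 11.3% of the summed FPKM in NC and 8.12% after si-circ_0000839. The sum itself was 135 ± 6.17 FPKM in NC and 135 ± 2.67 after si-circ_0000839. CAPRIN1 lay above 84.6% of all tested genes by its mean FPKM over the 6 libraries, and ATXN2 above 16.0%. The length behind FPKM counts the exonic bases of all transcripts of a gene, 16504 for ATXN2. The order between genes thus depends on the annotation. By reads ATXN2 was not the lowest, with 513 to 651 per library against 286 to 470 for TIA1.

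The lowest values of most members fell in the same libraries. In 7 of 10 members the lowest silenced value was that of replicate 1, and in 8 of 10 the lowest control value was that of NC replicate 2. The 7 were all 7 members whose longest transcript has a GC content under 45%, from FMR1 at 35.7% to CAPRIN1 at 44.5%. The members with a higher GC content, USP10, UBAP2L and ATXN2, had their highest silenced value in replicate 1 instead. NC replicate 2 did not divide the members in this way. Of the 7 under 45%, 6 had their lowest control value there, but TIAL1 had its highest. USP10 and ATXN2, with their higher GC content, also had their lowest control value in NC replicate 2. Over all tested genes, the fifth with the lowest GC content deviated from its gene means by -0.14 in si-circ_0000839 replicate 1 and by -0.05 in NC replicate 2 on the log2 scale, and the fifth with the highest by 0.11 and 0.08.

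After each library was corrected for a trend with GC content and gene length, 7 of the 10 differences came nearer to 0. G3BP2 hardly moved, from -0.45 to -0.44 (SE 0.06), and it stayed past the threshold in limma at an adjusted p of 0.00941, where 2.06% of all tested genes were called. TIA1 went from -0.21 to -0.14 (SE 0.07) and FXR1 from -0.16 to -0.12 (SE 0.06). FMR1 and ATXN2 turned their sign, to 0.0061 and -0.04, so no direction is given for them. With si-circ_0000839 replicate 1 and NC replicate 2 both left out, the difference of G3BP2 was -0.40 (SE 0.06), and its adjusted p in limma was 0.0620.

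**Figure D3:**
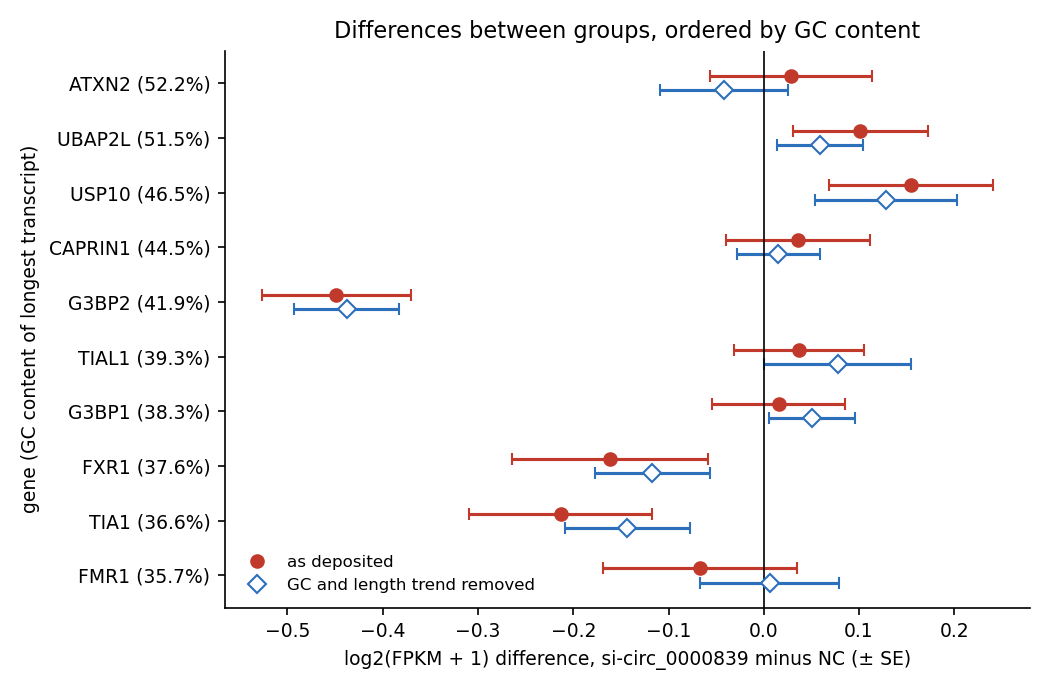
Log2(FPKM + 1) difference between si-circ_0000839 and NC (horizontal axis, ± SE) for the 10 genes, ordered by GC content, as deposited (red) and with the GC and length trend removed (blue). G3BP2 stays at -0.45 and -0.44, while TIA1 moves from -0.21 to -0.14.

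Every silenced value of G3BP2 lay below every control, so leaving libraries out could not turn its direction. Under 18 alternative settings G3BP2 ranged from -0.50 to -0.38 on the log2 scale, but its call did not hold. It was called in 8 of them and missed the threshold in limma whenever any single library was left out, with adjusted p values running from 0.0623 (si-circ_0000839 replicate 3 left out) to 0.148 (NC replicate 3 left out). Leaving out si-circ_0000839 replicates 1 and 2 gave 0.0862 and 0.0859, and NC replicates 1 and 2 gave 0.141 and 0.0704. It also missed at 0.0989 after rescaling to TPM and at 0.267 with no filter on low values. No other member was called under any of these settings, of which the minimum of 5 FPKM left TIA1, FXR1, FMR1 and ATXN2 untested.

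**Figure D4:**
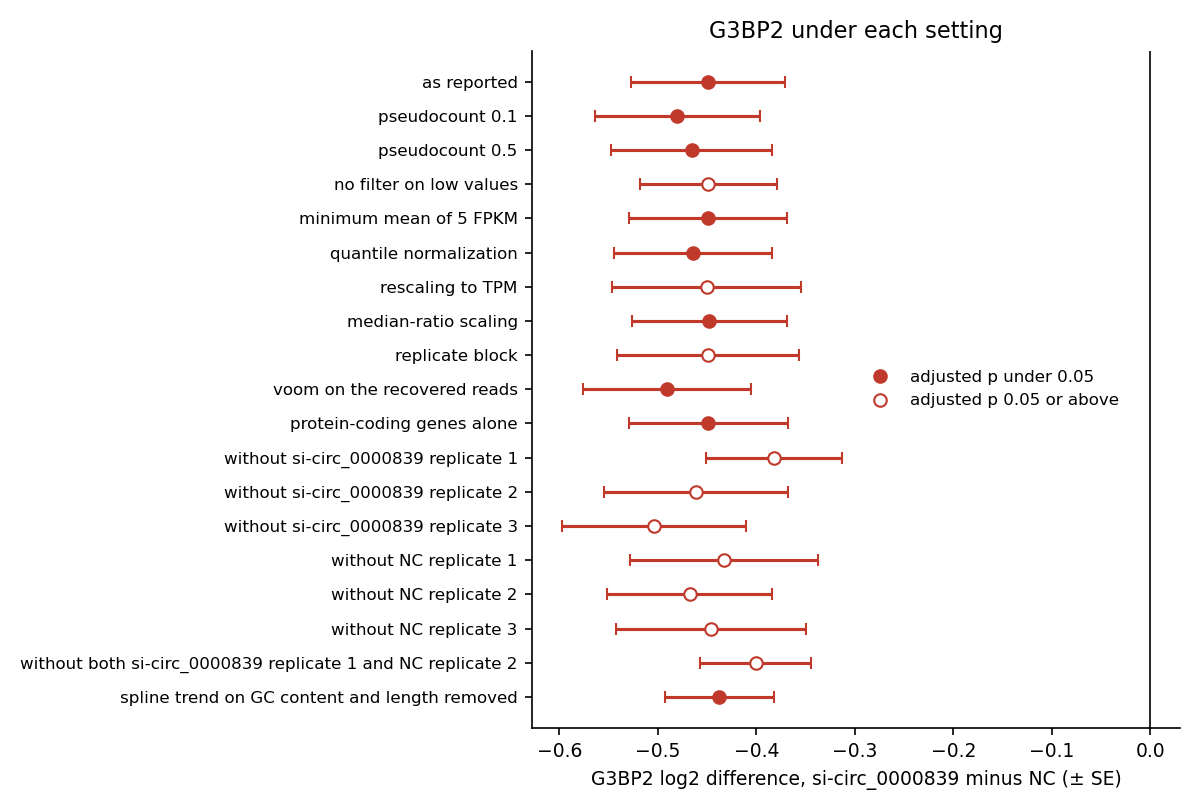
Log2 difference of G3BP2 between si-circ_0000839 and NC (horizontal axis, ± SE) as reported and under 18 alternatives, with filled points where the adjusted p is under 0.05. All points lie between -0.50 and -0.38, and the 6 fits with 1 library left out are open.

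Across members the groups did not overlap for 3 of 10 genes, G3BP2, TIA1 and USP10, against 18.1% of all tested genes. G3BP2, which had been picked for its difference, is among the 3, so nothing is read from this count. The median log2 difference of the 10 was 0.02, beside 0.01 over all tested genes. With 6 members above 0 and 4 below, the members did not go one way, and G3BP1, CAPRIN1, ATXN2 and FMR1 changed sign when single libraries were left out.

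Other genes of the stress granule pathway, 123 in 7 lists by function, gave 0 calls among 118 tested in limma, and 0 with voom on the recovered reads, which called 0.787% of all tested genes. At an unadjusted p under 0.05 there were 6 of 118, or 5.08%, where all tested genes gave 12.6%. The groups did not overlap for 14 of them, 11.9%, against the 18.1% of all tested genes. The lists were written with earlier results of these data known, so these shares are a description only. No tested gene of the lists differed by more than 0.23 on the log2(FPKM + 1) scale, and the median was 0.02. That limit holds for this fit alone, and listed genes under a mean of 1 FPKM were not tested. CAPRIN2 was at -0.17 here but at -0.34 with voom. MOV10 went from 0.22 to 0.29 without si-circ_0000839 replicate 2, but to 0.17 without si-circ_0000839 replicate 1 or with the GC and length trend removed.

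The genes that set the eIF2 switch upstream of granules, among them the kinases, eIF2, its exchange factor eIF2B and its phosphatase, had a median difference of 0.03 with 10 of 17 above 0. PPP1R15A, the stress-induced subunit of the eIF2 phosphatase, had the smallest p of this list at 41.8 ± 1.32 FPKM in NC against 46.2 ± 3.04 in si-circ_0000839 (limma adjusted p = 0.461). Among eIF4F and poly(A)-binding proteins, whose messenger RNA complexes are stored in granules, 9 of 12 lay above 0. The eIF4F subunit EIF4A1 is also on this list but was not tested. It was listed at a mean of 0.335 FPKM in NC and 0.296 in si-circ_0000839, and why it was so low was not tested. EIF4G1, the scaffold of the cap-binding complex, was at 107 ± 3.61 FPKM in NC against 124 ± 7.20 in si-circ_0000839, without overlap (limma adjusted p = 0.273). With the GC and length trend removed, the log2 difference of EIF4G1 went from 0.21 to 0.15. Of 13 eIF3 subunits 6 lay above 0 (median -0.0025), and EIF3E was at 29.5 ± 1.09 and 26.1 ± 3.68 FPKM. Its log2 difference of -0.18 was -0.07 without si-circ_0000839 replicate 1.

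Among other granule RNA-binding proteins 19 of 39 lay above 0 (median -0.01). MOV10, an RNA helicase of the small RNA pathway, was at 9.03 ± 0.685 FPKM in NC against 10.7 ± 0.954 in si-circ_0000839 (limma adjusted p = 0.310). In processing bodies, the neighbouring condensates that hold decapping enzymes, 10 of 19 lay above 0 (median 0.03), and LSM14B was at 21.4 ± 0.596 and 24.1 ± 1.70 FPKM. Its log2 difference of 0.16 was 0.10 with si-circ_0000839 replicate 1 and NC replicate 2 both left out. The list of granule clearance and modification had 9 of 17 above 0 (median 0.0047) and 3 genes at an unadjusted p under 0.05. HSPB8, a small heat shock protein, was at 22.1 ± 1.49 FPKM in NC against 25.9 ± 1.53 in si-circ_0000839 (limma adjusted p = 0.272). BAG3, the co-chaperone that works with HSPB8, was at 45.7 ± 2.08 and 52.6 ± 4.40 FPKM, and ZFAND1, which helps to clear granules, was at 3.41 ± 0.0600 and 2.90 ± 0.211. With the GC and length trend removed, the log2 difference of ZFAND1 went from -0.18 to -0.06. BAG3 and ZFAND1 are named because they complete that count and were chosen after their values were seen.

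**Figure D5:**
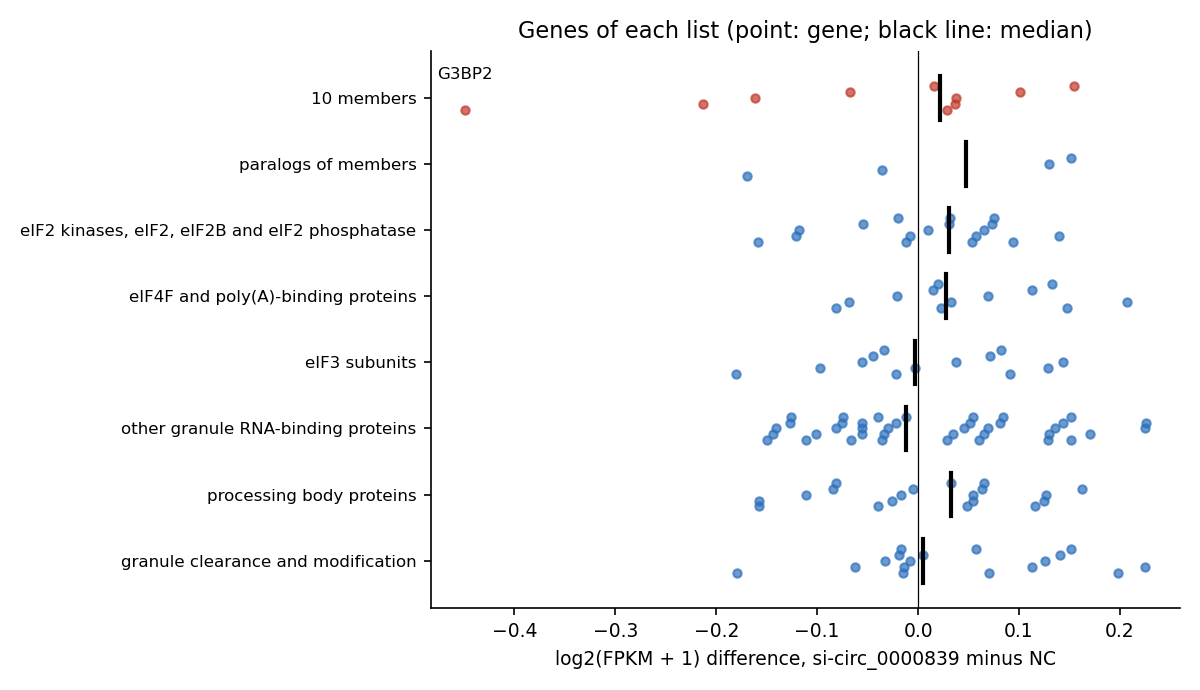
Log2(FPKM + 1) difference between si-circ_0000839 and NC (horizontal axis) for every tested gene of the member group (red) and of 7 lists (blue), with the median of each as a black line. None of the 118 listed genes differs by more than 0.23. G3BP2 is at -0.45, but it had been picked for its difference, so its place outside their range is not a further result.

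Over the 6 libraries, the protein-coding genes of at least 10 FPKM whose log2(FPKM + 1) was most like that of G3BP2, out of 3903 compared, were ST13 (Pearson r = 0.993), KIF4A (0.990) and PFN2 (0.981). These correlations share the 6 libraries and their depth, and so describe the pattern only. All 3 had smaller differences than G3BP2, ST13 at 51.3 ± 0.939 FPKM in NC against 43.7 ± 1.32 in si-circ_0000839, and none passed the threshold. Chosen for their likeness to a gene whose groups separate, they give no separate evidence of a difference.

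Overlapping genes could touch some of these values, since no source used here gives the strand setting of the counting. G3BP2 shares 1 exonic base with an RNA gene that was listed at 0. ATXN2 shares 69 exonic bases with SH2B3 on the other strand, which at 27.7 FPKM in NC was far more abundant than ATXN2 itself. G3BP1 shares 130 exonic bases with ATOX1 on the other strand, at 10.7 FPKM in NC, and TIA1 shares 211 with C2orf42 on its own strand, at 1.49.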

How the data were processed

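The authors deposited FPKM per gene with gene lengths and positions, per the file headers. The submitters' processing notes list HISAT2 2.0.5 and featureCounts 1.5.0-p3; build, strand setting and scaling are not stated in any source used here. All 58735 genes had the positions and exonic lengths of GENCODE release 29 (GRCh38). FPKM times length was a whole multiple of 1 step per library for 100% of values (within 0.01 reads), which gave the reads. The total that scales a library ranged from 0.958 (NC replicate 2) to 1.02 (NC replicate 3) times its recovered reads. Replicates differed beyond sampling noise (chi-square per degree of freedom 2.98 to 9.95).

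Groups and replicate numbers came from the titles. The test was limma 3.58.1 (R 4.3.3), trended prior variance, two-sided, on log2(FPKM + 1), group as the only term, for the 10674 genes whose mean reached 1 FPKM, with Benjamini-Hochberg adjustment over all of them and a threshold of 0.05. It was tested on simulated reads that carried no GC trend between libraries, so that check does not cover the trends seen here. GC content is that of the longest GENCODE transcript; the trend removed was a pair of natural splines (5 degrees of freedom), on GC content and on log2 length. Genes named by rule are the 10 members, their paralogs, the gene with the smallest p of each list where none was called, and the 3 genes most like G3BP2; BAG3 and ZFAND1 were added after their values were seen, and markers and overlapping genes are named only beside values they touch. Members and lists were chosen with earlier results of these data known.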

Additional observations from a re-analysis of the deposited data

How the results depend on the processing

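The 41 calls over all genes (14 higher, 27 lower) became 4 with no filter on low values, 68 (33 higher, 35 lower) at a minimum of 5 FPKM, 63 (29 and 34) after quantile normalization, 84 (47 and 37) with voom, 125 (51 and 74) for protein-coding genes alone, 220 (111 and 109) with the GC and length trend removed, 26 with si-circ_0000839 replicate 1 and NC replicate 2 both left out, and 20 to 38 with 1 library left out; rescaling to TPM gave 32 higher and 23 lower. The cause was not tested, beyond the fewer or more genes and samples that some settings hold by construction. The 1 called member, G3BP2, became 0 with no filter, after rescaling to TPM, without both libraries, and in each fit with 1 library left out. Same-numbered libraries did not deviate together (r from -0.29 to 0.15), so the numbers are not taken as pairs; with the replicate number as a block 35 genes and 0 members were called, G3BP2 at a limma adjusted p of 0.0893. Calls in the 7 lists stayed at 0 under every setting. Over 25 named genes and 18 settings, 424 of 444 values kept direction and side of the threshold and 10 were weaker, all of G3BP2. Sign changed for uncalled genes only: with single libraries left out G3BP1 ranged from -0.023 to 0.044, CAPRIN1 from -0.019 to 0.080, ATXN2 from -0.019 to 0.071, FMR1 from -0.13 to 0.018 and FXR2 from -0.072 to 0.0015; ATXN2 was at -0.040 without both libraries and at -0.042 with the trend removed, and FMR1 at 0.0061 with the trend removed. Planned count-model tests were not run, since the values are FPKM; voom was chosen after seeing the data. With 286 to 470 reads per library, TIA1 is less precisely measured than G3BP2.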
